A study of Homo sapiens with 6 samples.

Results

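The insulin-like growth factor (IGF) genes described here are 10 in number: the receptor genes IGF1R, INSR and IGF2R, the adaptor genes IRS1 and IRS2, and the genes of the secreted binding proteins IGFBP2, IGFBP3, IGFBP4, IGFBP5 and IGFBP6. They were taken by symbol from the authors' deposited table of 26485 genes, which listed all 10. Polyadenylated RNA was sequenced from PC9, a line from a human lung adenocarcinoma that carries a mutant EGFR and depends on its activity. The comparison set 3 libraries of dacomitinib-resistant PC9 cells kept in 100 nM dacomitinib against 3 libraries of untreated parental PC9 cells. Dacomitinib blocks kinases of the EGFR family covalently, and the resistant cells had been raised from the parental line over 6 months in doses that climbed from 1 pM to 100 nM. No parental cells with drug and no resistant cells without drug were analysed here, so resistance and the presence of drug cannot be told apart. The labels do not say whether the resistant line is 1 clone or a mixed population, or whether the replicates came from separate cultures, so p-values may measure technical spread only.

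IGF1 and IGF2 are secreted growth factors that bind the receptor tyrosine kinase IGF1R, which is closely related to the insulin receptor INSR. The activated receptors phosphorylate the adaptors IRS1 and IRS2, which recruit PI3-kinase and lead to AKT, and AKT in turn keeps FOXO transcription factors out of the nucleus. IGF-binding proteins hold the growth factors outside the cell, and IGF2R takes IGF2 up for breakdown in lysosomes and carries lysosomal enzymes. In lung cancers with mutant EGFR, IGF1R signalling has been described as a bypass route under EGFR inhibitors, with changes in binding proteins reported alongside it.

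The authors' deposited table gives, for each gene, a mean count over all libraries after scaling for depth, its log2 fold change and the standard error (SE) of that change. Because a mean is a sum of whole reads each worth a fixed amount in its library, the reads of the 10 genes in each library could be worked back from it. Libraries are named by the side of the fold they fall on, read as parental or resistant, and numbered 1 to 3 within a side by rising size factor, the number that scales a library for its depth. These numbers are not the replicate numbers of the labels, to which they were not tied. Size factors were 0.539, 1.03 and 1.08 on the parental side and 1.06, 1.19 and 1.37 on the resistant side, and the means of all genes in the authors' deposited table add up to 3.97e+06. Resistant libraries 1 and 3 were closest to each other: over genes with a mean count of 5 to 100 they differed by no more than counting noise, and over genes with more reads they did differ. They were kept as separate samples, and of the calls given for the 10 genes the one that was lost without either of them was that of IGFBP6, without library 3. All 6 epithelial markers looked up had reads in the authors' deposited table, from a mean of 293 for CDH1 to 22535 for KRT7. EGFR, the target of the drug, stood at 241, 195 and 213 normalized counts in parental libraries and at 95.9, 85.8 and 83.8 in resistant libraries, without overlap. Its log2 fold change in the authors' deposited table was -1.28 ± 0.16 (SE).

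Resistant cells had far less IGFBP2 transcript, less IGFBP4, and modestly less IGFBP3, IGFBP6 and IRS2. IGFBP5 rose from near 0 to a low level and IGF2R rose modestly. For IGF1R, INSR and IRS1 no difference passed the test. Of the 10 genes in the authors' deposited table, 7 passed an adjusted p of 0.05 (Wald test, two-sided, with Benjamini-Hochberg adjustment over 13494 genes), where 28.2% of all tested genes did. Higher in resistant cells were 2 of the 10, against a background of 13.3% in the authors' deposited table, and lower were 5, against 14.8%. Much of the set is well expressed: 7 of the genes averaged 50 or more normalized counts in the authors' deposited table, and 6 of these 7 passed, where 41.5% of the 6952 genes at that level did. The 10 had a median log2 fold change of -0.33, and all genes tested in the authors' deposited table one of 0.02.

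**Figure D1:**
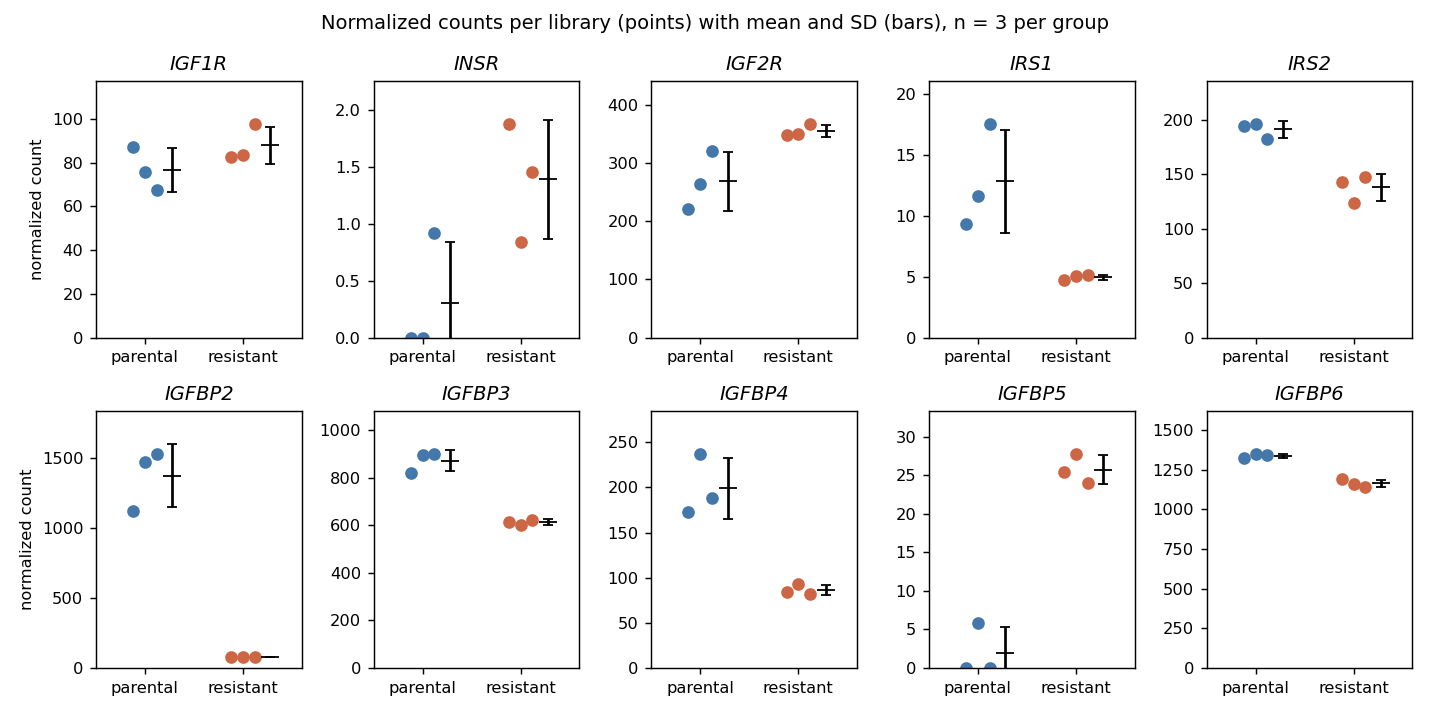
Normalized counts of the 10 genes in each library, with the groups on the horizontal axis and the count on the vertical axis, which starts at 0 and differs between panels; points are libraries, bars the mean and SD of 3. Parental and resistant points of IGFBP2 are far apart (lowest parental 1118, highest resistant 77.3), whereas those of IGF1R and INSR overlap.

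**Figure D2:**
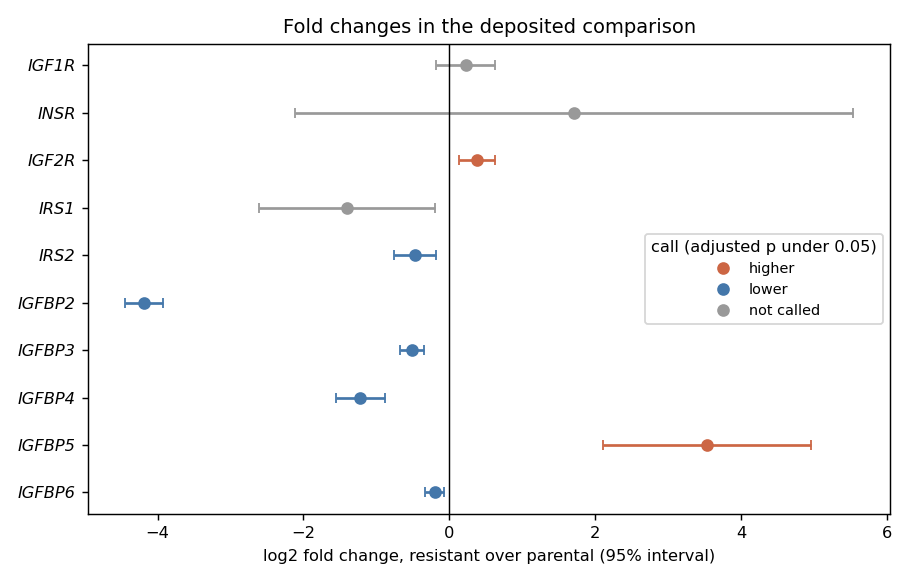
Log2 fold change of resistant over parental cells (horizontal axis) for each gene with its 95% normal interval from the SE of the authors' deposited table; colours give the call. The intervals of IGFBP2, IGFBP3, IGFBP4, IGFBP6, IRS2 and the uncalled IRS1 lie below 0, those of IGFBP5 and IGF2R above 0, and that of INSR runs from -2.12 to 5.54.

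The ligand genes were at or near 0. IGF2 and INS, the insulin gene, stood at 0 throughout in the authors' deposited table, and IGF1 had a single read, in a resistant library. Some genes that nearly all cells use were also close to 0 in these libraries, which are primed at the poly(A) tail and read 3′ ends. RPL10, a ribosomal protein gene, averaged 0.571 normalized counts in the authors' deposited table. A count near 0 is therefore not read as absence.

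IGF1R, the signalling receptor for IGF1 and IGF2 (chromosome 15, from 98648539 to 98964530, plus strand, GRCh38), had 87.2, 75.5 and 67.3 normalized counts in parental libraries and 82.7, 83.3 and 97.7 in resistant ones. The groups overlapped, with means of 76.6 ± 9.98 and 87.9 ± 8.47 (SD, n = 3 each). Its log2 fold change of 0.22 ± 0.21 (SE) missed the threshold in the authors' deposited table (adjusted p = 0.493). The 95% interval ran from -0.18 to 0.63, so at this depth of 519 reads in all a rise beyond that bound, and a fall beyond the lower one, lie outside it, while smaller differences are not resolved.

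INSR, the insulin receptor gene (chromosome 19, from 7112255 to 7294034, minus strand), had 6 reads in all. These were 0, 0 and 1 in parental libraries and 2, 1 and 2 in resistant libraries. Its fold change in the authors' deposited table carried an SE of 1.95 log2 units (adjusted p = 0.601), so no difference was detectable at this depth.

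IGF2R (chromosome 6, from 159969099 to 160113507, plus strand), the receptor that removes IGF2 and also sorts enzymes to lysosomes, was the receptor gene whose difference passed. It had 221, 264 and 321 normalized counts in parental libraries and 349, 349 and 367 in resistant libraries. Every resistant library lay above every parental one, and the spread was wider on the parental side, with an SD of 50.2 against 10.6. The log2 fold change was 0.38 ± 0.13 (SE) in the authors' deposited table (adjusted p = 0.0115), a 1.30-fold rise. The call depended on parental library 1, the shallowest, without which the log2 fold change was 0.28 ± 0.14 (SE) and no longer passed. A refit has no adjusted p, so its unadjusted Wald p, here 0.0432, was set against 0.0141, the highest p called in the authors' deposited table.

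Both IRS adaptor genes had lower values in resistant cells, and the fall of IRS2 passed the test. IRS2 (chromosome 13, from 109752698 to 109786568, minus strand) stood at 195, 196 and 183 normalized counts in parental libraries and at 143, 124 and 147 in resistant libraries, without overlap. The log2 fold change was -0.47 ± 0.15 (SE) in the authors' deposited table (adjusted p = 0.00787). Without resistant library 2, the lowest of the 6, it was -0.39 ± 0.16 (SE) and no longer passed. IRS1 (chromosome 2, from 226731317 to 226799759, minus strand) is the other widely used adaptor of both receptors. It was counted from 54 reads, with 9.27, 11.6 and 17.5 normalized counts in parental libraries and 4.70, 5.05 and 5.10 in resistant libraries. Although the groups did not overlap, the log2 fold change of -1.40 ± 0.61 (SE) missed the threshold in the authors' deposited table (adjusted p = 0.0732). Its 95% interval ran from -2.61 to -0.20.

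Among the binding proteins, IGFBP2, IGFBP4 and IGFBP5 both passed the test and differed by at least 2-fold. Of all 13494 tested genes in the authors' deposited table, 10.2% met both conditions. The promoters of IGFBP2, IGFBP4 and IGFBP5 are shown because 2 of these genes, IGFBP2 and IGFBP5, are neighbours on chromosome 2 that moved in opposite directions. RefSeq promoter windows (GRCh38.p14, 250 bases before to 50 after a transcript start) were found for all 10 genes, and each line gives 300 bases, 5′ to 3′ on the gene's strand. Capitals mark matches, on either strand, to motifs that do not overlap one another in these windows: the TATA box TATAAA; an A/T-rich variant of that box, spelled TATTTAA; the E-box, which reads CACGTG; the AP-1 site, which reads TGACTCA; the FOXO site, in the form GTAAACA; and the SP1 site, searched as GGGCGG. The A/T-rich variant, the E-box and the windows to show were picked after the promoters of the 10 genes had been read, so their presence here is no test. For IGFBP2, RefSeq gives 3 starts, and the window shown is the most G/C-rich of them, at chr2:216633170-216633469 on the plus strand. The IGFBP5 window is chr2:216695500-216695799 on the minus strand, and that of IGFBP4 is chr17:40443200-40443499 on the plus strand.
IGFBP2: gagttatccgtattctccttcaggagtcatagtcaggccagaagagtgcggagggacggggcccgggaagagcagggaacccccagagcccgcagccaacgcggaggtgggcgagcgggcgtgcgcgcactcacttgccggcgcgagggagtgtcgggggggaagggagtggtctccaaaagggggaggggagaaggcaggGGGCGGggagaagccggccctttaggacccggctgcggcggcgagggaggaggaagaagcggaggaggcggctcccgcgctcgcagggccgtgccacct
IGFBP5: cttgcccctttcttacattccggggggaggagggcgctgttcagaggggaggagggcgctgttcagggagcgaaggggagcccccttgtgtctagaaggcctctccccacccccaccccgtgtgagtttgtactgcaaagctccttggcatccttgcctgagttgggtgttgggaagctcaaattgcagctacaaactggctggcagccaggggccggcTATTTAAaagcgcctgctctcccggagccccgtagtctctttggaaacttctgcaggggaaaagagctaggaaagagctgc
IGFBP4: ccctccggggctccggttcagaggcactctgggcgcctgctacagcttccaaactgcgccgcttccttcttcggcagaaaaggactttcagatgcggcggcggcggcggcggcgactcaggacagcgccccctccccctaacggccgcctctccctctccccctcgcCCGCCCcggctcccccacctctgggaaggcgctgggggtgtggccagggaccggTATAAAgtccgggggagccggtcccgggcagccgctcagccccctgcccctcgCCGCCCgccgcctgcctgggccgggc

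Counting from the start as 0, the IGFBP4 window holds TATAAA at -29 and the IGFBP5 window holds TATTTAA at -31. Neither motif was in the 3 IGFBP2 windows. TATAAA was in 11.5% and TATTTAA in 4.52% of 35116 RefSeq promoter windows of this length. The IGFBP2 window shown has a G/C content of 70.0% and a ratio of observed to expected CpG of 0.825, against 59.0% and 0.347 for IGFBP5. This contrast holds for that window only: the other IGFBP2 windows have 55.3% with 0.364 and 56.7% with 0.257. The FOXO motif GTAAACA was found in the window of IGFBP6 alone among the 10 genes, and in 3.42% of all windows. The E-box CACGTG, in 7.26% of all windows, occurred 3 times in that of IGF2R and once in that of IRS1. TGACTCA was in none of the windows of the 10 genes, and in 4.95% of all windows. The SP1 motif GGGCGG, marked in the IGFBP2 and IGFBP4 lines, was in 45.0% of all windows. Counts of 3′ ends do not show which start was used, and no binding was measured.

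IGFBP2, a binding protein made by many epithelial tumours (chromosome 2, from 216632828 to 216664436, plus strand), had the largest difference of the set. Its normalized counts were 1118, 1473 and 1527 in parental libraries and 75.2, 74.9 and 77.3 in resistant libraries. The means were 1373 ± 222 and 75.8 ± 1.29 (SD, n = 3 each), and the lowest parental library was far above the highest resistant one. The log2 fold change was -4.19 ± 0.13 (SE) in the authors' deposited table (adjusted p = 1.29e-209), an 18.2-fold lower level. By fold this was rank 15 among the falls of the 6952 genes with a mean count of 50 or more, and by p-value rank 10 of 13494 in the authors' deposited table. Leaving out any library moved the log2 fold change only between -4.31 and -4.10.

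IGFBP5 (chromosome 2, from 216672105 to 216695525, minus strand), a binding protein that adheres to extracellular matrix, moved the other way from its neighbour. It had 0, 6 and 0 reads in parental libraries and 27, 33 and 33 in resistant libraries. In normalized counts, resistant libraries stood at 25.4, 27.8 and 24.1, each above the single parental value of 5.80. The log2 fold change was 3.53 ± 0.73 (SE) in the authors' deposited table (adjusted p = 1.15e-05). All parental reads were in parental library 2, and the size of the rise depends on how the parental side is sampled. Without parental library 3 the log2 fold change fell to 2.83 ± 0.76 (SE), and without parental library 1 it was 3.17 ± 0.75 (SE). Without parental library 2 the parental side is at 0 and no fold could be fitted.

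IGFBP5 is also expressed by fibroblasts, and markers of those cells were looked up beside it. Of 10 fibroblast markers 6, COL1A2, PDGFRA, DCN, LUM, THY1 and PDPN, stood at 0 throughout in the authors' deposited table. The other 4 (COL1A1, COL3A1, PDGFRB and FBLN1) summed to between 457 and 491 normalized counts in parental and between 747 and 792 in resistant libraries. PDGFRB and COL1A1 were higher and FBLN1 lower in resistant cells in the authors' deposited table, with log2 fold changes of 8.17 ± 0.60, 4.11 ± 0.82 and -2.35 ± 0.13 (SE). Their part in the rise of IGFBP5 was not tested. Of 5 blood cell and 4 endothelial markers, 2 and 2 were tested in the authors' deposited table, and 0 of them was higher in resistant cells. LYZ (-3.25 ± 1.13) and CDH5 (-1.20 ± 0.38) were lower on the log2 scale, with SE, in the authors' deposited table.

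IGFBP2 and IGFBP5 face each other tail to tail, with 7668 bases between their 3′ ends and no overlap of the annotated genes. The 51 other tested genes within 5 Mb of the point between them had a median log2 fold change of 0.21, and 13 of them were below 0. By adjusted p, 16 of them rose and 3 fell, where 13.3% of all tested genes rose and 14.8% fell. This was 37.3% called, against 28.2% of all tested genes and 41.5% of those with a mean count of 50 or more in the authors' deposited table. The window holds genes on both sides of that level. Many of these 16 rises and 3 falls were far smaller than those of the pair, such as DNPEP at 0.27 and CTDSP1 at -0.42. The largest of these changes, named after their values were seen, were rises of FN1 (5.40 ± 0.12), which encodes fibronectin, DES (5.03 ± 1.41) and WNT6 (4.09 ± 0.46), on the log2 scale with SE, in the authors' deposited table. The mean counts there were 1635 for FN1, 44.2 for WNT6 and only 3.54 for DES, whose fold therefore rests on few reads. Around the other members the medians within 5 Mb lay between -0.04 and 0.33, the highest around IGF1R, where 20 genes had a median of 0.33.

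**Figure D3:**
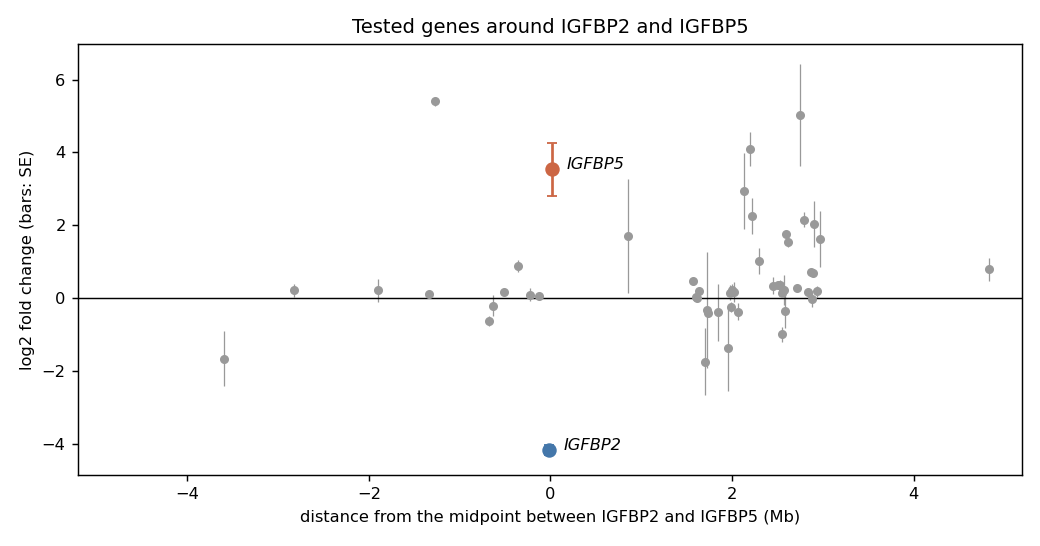
Log2 fold change with its SE (vertical axis) of each tested gene by distance from the midpoint between IGFBP2 and IGFBP5 in Mb (horizontal axis). IGFBP2 at -4.19 and IGFBP5 at 3.53 stand side by side near 0 Mb. The other 51 genes have a median of 0.21, and 3 of them, FN1 at 5.40, DES at 5.03 (mean count 3.54) and WNT6 at 4.09, lie above IGFBP5.

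IGFBP4 (chromosome 17, from 40443461 to 40457731, plus strand), a binding protein that restrains IGF action until it is cleaved by PAPPA, fell by less than IGFBP2. It had 172, 237 and 188 normalized counts in parental libraries and 84.6, 92.6 and 82.4 in resistant libraries, without overlap. The log2 fold change was -1.22 ± 0.17 (SE) in the authors' deposited table (adjusted p = 1.24e-11), a 2.33-fold lower level. PAPPA itself, the protease, averaged 5.28 normalized counts, and its difference missed the threshold in the authors' deposited table (adjusted p = 0.776). Of 3 tested genes on the list of such proteases and their inhibitors, 1 was lower and 0 higher, 33.3% called against 28.2% of all tested genes. The lower gene was the inhibitor STC1, named after its values were seen, at a mean count of 12.4. Its log2 fold change was -1.87 ± 0.55 (SE) in the authors' deposited table.

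IGFBP3 (chromosome 7, from 45912245 to 45921874, minus strand), the main carrier of IGFs in blood, had 822, 898 and 901 normalized counts in parental libraries and 616, 601 and 624 in resistant libraries. The groups were well apart, and the log2 fold change was -0.51 ± 0.08 (SE) in the authors' deposited table (adjusted p = 8.04e-09). IGFBP1, its neighbour on chromosome 7 in a tail-to-tail pair 18576 bases apart, was no member and was singled out after its values were seen. IGFBP1 had 13, 14 and 25 reads in parental and 1, 1 and 6 in resistant libraries, with a log2 fold change of -3.21 ± 0.70 (SE) in the authors' deposited table (adjusted p = 4.44e-05). Both genes of this pair thus fell.

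IGFBP6 (chromosome 12, from 53097436 to 53102345, plus strand), which prefers IGF2 to IGF1, was counted from 7777 reads and changed least among the genes that passed. It had 1324, 1350 and 1342 normalized counts in parental libraries and 1189, 1163 and 1142 in resistant libraries, so the groups did not overlap although they differed by only 1.15-fold. The log2 fold change was -0.20 ± 0.07 (SE) in the authors' deposited table (adjusted p = 0.0161). Without resistant library 3 it was -0.19 ± 0.08 (SE) and no longer passed. Folds were also centred on the median of genes with a mean count of 50 or more. IGFBP6 then stood at -0.17 ± 0.07 (SE) and passed only narrowly (Wald test, adjusted p = 0.0476).

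The make-up of binding-protein reads therefore differed between the groups. Of the summed reads of IGFBP1 to IGFBP6, IGFBP2 held 32.3% (95% Wilson interval 30.2 to 34.5), 37.0% (35.6 to 38.5) and 38.4% (36.9 to 39.8) in parental libraries. In resistant libraries IGFBP2 held 3.78% (3.05 to 4.68), 3.82% (3.12 to 4.68) and 3.96% (3.28 to 4.76). These intervals cover counting error only. The share is a ratio within a library and does not use the size factors. IGFBP6 held 35.3% ± 2.57 of these reads in parental and 59.2% ± 0.664 in resistant libraries, IGFBP3 23.0% ± 0.658 and 31.2% ± 0.677, and IGFBP4 5.22% ± 0.651 and 4.40% ± 0.283 (SD, n = 3 each). The larger shares of IGFBP6 and IGFBP3 went with lower counts of both genes. The summed normalized count of the 6 genes was 3806 ± 299 in parental and 1968 ± 20.0 in resistant libraries, and without IGFBP2 it was 2433 ± 82.4 and 1892 ± 20.7 (SD, n = 3 each).

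**Figure D4:**
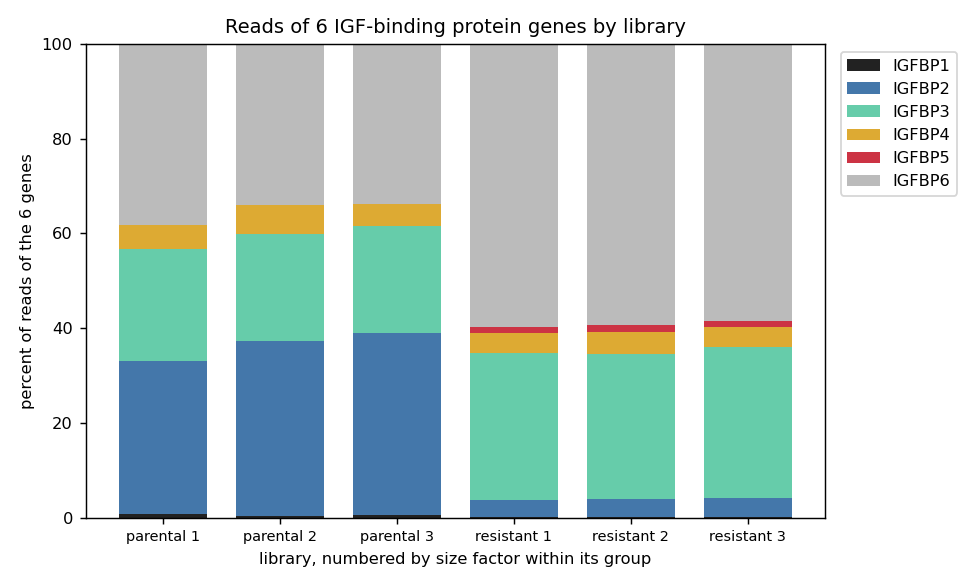
Percent of the reads of IGFBP1 to IGFBP6 (vertical axis) held by each gene in each library (bars), numbered by size factor within its group. IGFBP2 takes 32.3% to 38.4% in the 3 parental bars and 3.78% to 3.96% in the 3 resistant bars, and IGFBP6 takes the largest part of each resistant bar.

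Spread within groups differed widely between the genes. The coefficient of variation of normalized counts in resistant libraries was 1.70% for IGFBP2, 1.91% for IGFBP3 and 2.05% for IGFBP6. These were the lowest of the 10 on that side, and the highest was 37.5% for INSR. The lowest values were below the spread that counting error alone gives on average at such depths, with 80, 89 and 106 reads for IGFBP2. They are therefore not read as a tight level. In parental libraries the coefficient was 16.2% for IGFBP2, 5.14% for IGFBP3 and 0.964% for IGFBP6, the last again below counting error. It was 18.7% for IGF2R, 33.2% for IRS1 and 173% for IGFBP5 and INSR, whose parental reads all lie in 1 library each. Counting error alone made up 22.2% of the squared SE of IGFBP6 and 80.5% of that of IGFBP5, so the depth limits the second far more than the first.

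The other genes of the pathway moved in both directions. Of 77 genes in lists of ligands, other binding proteins and their proteases, other adaptors, IGF2 mRNA-binding proteins, PI3-kinase to mTOR components, brakes on the pathway and FOXO factors and targets, 64 had an adjusted p in the authors' deposited table. By the authors' deposited table, 12 of them were higher, 14 lower and 38 not called, so that 40.6% were called, beside 28.2% of all tested genes. Their median log2 fold change was -0.12 in the authors' deposited table. Of all 6952 genes with a mean count of 50 or more 41.5% were called, and the lists hold genes on both sides of that level.

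In the authors' deposited table, 9 adaptors outside the IRS pair were tested, of which 3 rose and 1 fell. This was 44.4% called, against 28.2% of all tested genes and 41.5% of those with a mean count of 50 or more. GRB10, an adaptor that restrains insulin and IGF1 receptors, rose by a log2 fold change of 0.57 ± 0.18 (SE) in the authors' deposited table, with 83.5, 85.1 and 83.9 normalized counts in parental and 123, 125 and 127 in resistant libraries. SHC1, which links receptors to RAS, fell by 0.43 ± 0.09 (SE) on the log2 scale in the authors' deposited table. Of the 3 IGF2 mRNA-binding protein genes, IGF2BP2 was lower at -0.42 ± 0.12 (SE) in the authors' deposited table, and the other 2 were not called.

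From PI3-kinase to mTOR, 18 genes were tested in the authors' deposited table, and 3 rose and 3 fell, a called share of 33.3% that is near the 28.2% of all tested genes. The largest difference in this list was that of PIK3CD, a catalytic subunit best known from leukocytes, which was chosen after its values were seen because its mean count of 30.0 is under the minimum of 50 for naming. PIK3CD had 5.56, 7.74 and 8.30 normalized counts in parental and 43.2, 66.5 and 48.8 in resistant libraries, a log2 fold change of 2.83 ± 0.43 (SE) in the authors' deposited table. The regulatory subunit gene PIK3R3 fell by 1.10 ± 0.15 (SE) on the log2 scale in the authors' deposited table. AKT2 (0.53 ± 0.16) and RHEB (0.32 ± 0.08), an activator of mTOR, rose, while EIF4EBP1 (-0.46 ± 0.09) and MLST8 (-0.36 ± 0.08) fell, with SE, in the authors' deposited table. AKT1, the isoform most widely used, had a log2 fold change of 0.03 ± 0.08 (SE) that missed the threshold in the authors' deposited table (adjusted p = 0.881).

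Among 14 tested brakes on the pathway the authors' deposited table held 3 rises and 2 falls, a called share of 35.7% that is also near that of all tested genes. SOCS2, a suppressor of cytokine and growth hormone signalling, rose from 20.4, 26.1 and 21.2 normalized counts in parental libraries to 109, 94.2 and 87.5 in resistant libraries. This was a log2 fold change of 2.08 ± 0.27 (SE) in the authors' deposited table. PIK3IP1, an inhibitor of PI3-kinase and also on the FOXO target list, was chosen after its values were seen and had 1, 4 and 8 reads in parental and 50, 55 and 50 in resistant libraries. Its log2 fold change was 3.17 ± 0.51 (SE) in the authors' deposited table. PTPN2 (-0.54 ± 0.16), a phosphatase that acts on the insulin receptor, and PHLPP1 (-0.52 ± 0.15), a phosphatase of AKT, fell in the authors' deposited table.

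The authors' deposited table called 3 of 4 tested FOXO factor genes lower and 0 higher, where 14.8% of all tested genes were lower and 13.3% higher. FOXO3 fell by 0.46 ± 0.14 (SE) on the log2 scale in the authors' deposited table, and FOXO1, chosen after its values were seen at a mean count of 20.6, had a log2 fold change of -2.36 ± 0.46 (SE) there. Among 13 tested FOXO targets the authors' deposited table called 4 higher and 2 lower, with a median log2 fold change of -0.11. This was 46.2% called, against 28.2% of all tested genes and 41.5% of those with a mean count of 50 or more. GADD45A, a growth arrest gene with many other inputs, rose by 2.33 ± 0.08 and CITED2 by 0.84 ± 0.11 (SE) on the log2 scale in the authors' deposited table. BCL6, a transcriptional repressor, fell by 1.37 ± 0.17 (SE) on the log2 scale in the authors' deposited table. FBXO32 (mean count 48.4) and SESN1 (23.3), chosen after their values were seen, had log2 fold changes of 2.98 ± 0.35 and -1.01 ± 0.37 (SE) there. ERBB3, the receptor partner of the drug's targets, had a log2 fold change of 0.34 ± 0.16 (SE) that missed the threshold in the authors' deposited table (adjusted p = 0.107).

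**Figure D5:**
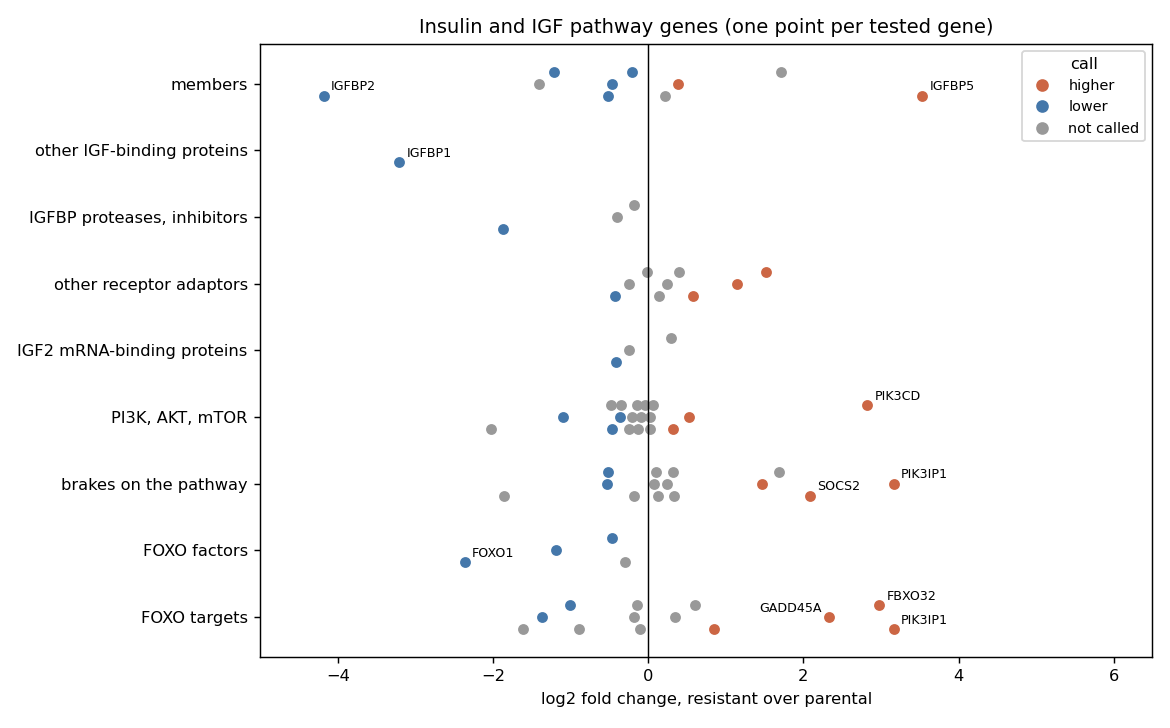
Log2 fold change of resistant over parental cells (horizontal axis) for each tested gene of the lists named on the vertical axis, coloured by call; called genes at least 1.9 log2 units from 0 are named. IGFBP2 at -4.19 and IGFBP5 at 3.53 are the farthest points on either side, and the 18 genes from PI3-kinase to mTOR lie mostly near 0.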

How the data were processed

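RNA was sequenced from 6 PC9 samples, 3 parental and 3 resistant. Per the labels' protocols, libraries were a bulk form of MARS-seq primed at the poly(A) tail. The submitters' processing notes name GRCh38 and the tools STAR, cutadapt, DESeq2 and HTSeq, without versions; strand use and collapsing of molecular barcodes are not given in the sources used here. The authors' deposited table holds, per the file headers, normalized counts as 1 mean (a signal) over all libraries, a log2 fold change and its SE, a Wald score, a p-value and an adjusted p-value. Which group is over which is absent from those headers, and the fold is read as resistant over parental from the design text. Benjamini-Hochberg adjustment was recomputed and matched the deposited values.

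Reads per library were worked back from the means, a step devised, like the form of the refits below, after the table had been seen. A mean is a sum of whole reads, each worth 1/(6 × size factor), and 6 such values recurred among genes with 1 read. Each of the 2685 lowest genes (mean under 1 but not 0) was a whole-read sum of them within 1e-12. For 84 genes, whole-number reads were sought that gave the deposited mean to its last printed digit and, in a negative binomial fit at the dispersion that gives the deposited SE, the deposited log2 fold change within 1e-05. The side of each library came from the sign of the fold of genes with 1 read. Of 200 other genes drawn at random, 200 had exactly 1 solution, and 0 had one after the mean was shifted by 1e-06. The mean alone already fixed 199 of these 200, so this draw says little about choosing by the fold, on which the larger genes rest: the means of IGFBP2, IGFBP3 and IGFBP6 had 138, 340 and 1823 solutions, and the runner-up for IGFBP6 missed the fold by 4.1e-05. On simulated data 196 of 200 genes were solved, with 0 solved wrongly, among them all 73 whose mean had more than 1 solution (at most 1568). INSR and 8 more genes with very few reads were solved from the mean alone. Whether 2 libraries of a side could be 1 library deposited again was checked by chi-square on drawn genes, in 3 ranges of the mean. In the first range, 200 genes with a mean of 5 to 100, resistant libraries 1 and 3 agreed within counting noise (chi-square 0.942 per gene, where counting noise gives 1), while the other 5 pairs differed (1.22 to 1.82). The other ranges were added after that result was seen. Over 300 genes with a mean of 100 to 300 all 6 pairs differed (1.19 to 1.80, with 1.25 for libraries 1 and 3), as they did over 150 genes with a mean of 300 to 700 (1.48 to 3.31). Genes with more reads can show smaller differences, so the libraries were kept as 3 samples, and refits without either are among the alternatives.

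The members and lists were chosen with earlier results of these data known. Named genes are the 10 members and, per list, up to 3 rises and 3 falls among called genes with a mean count of 50 or more. Alternatives were an adjusted p of 0.01, a 2-fold minimum, recentred folds, other filters on low counts, a 2 Mb window, and refits without each library at the dispersion of the gene. Calls in these refits rest on an unadjusted Wald p of at most 0.0141, the highest called in the authors' deposited table. A count test over the whole table was not run, since reads were worked back only for the genes of the lists and those drawn for checks. Positions are from GENCODE 29 (GRCh38), found by symbol for 93.7% of tested genes, and promoter windows from RefSeq (GRCh38.p14). Python 3.11.15 with scipy 1.17.1 and numba 0.67.0 was used.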

Additional observations from a re-analysis of the deposited data

How the results depend on the processing

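Of the 10 genes, 2 were called higher and 5 lower. Higher calls numbered 1 at an adjusted p of 0.01, with the 2-fold minimum, and among genes with a mean count of 50 or more only, where IGFBP5 is not tested; IGF2R and IGFBP6 were the calls lost at 0.01. With the 2-fold minimum 2 were lower and 3 called in all, and the pathway genes gave 7 lower and 15 in all. Refits that left out 1 library gave 1 to 2 higher calls, and 1 of those refits had no IGFBP5 value because its parental side was then at 0. Recentring the folds and dropping the filter kept each of these counts within 1.5 times, and no fold of the 10 genes changed sign in any alternative run, though INSR was not refitted without a library. Around IRS2 the median fold of neighbours was 0.23 within 5 Mb and -0.02 within 2 Mb, and the cause was not tested. No paired analysis was possible because the libraries could not be tied to the replicate numbers of the labels. Depth limits INSR, IRS1 and IGFBP5, with 6, 54 and 99 reads.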
